A study of Mus musculus with 4 samples.

Results

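The 500 regions described here had a peak of open chromatin in all 4 libraries and took a higher place in both knockout lists than in both wild-type lists. They were drawn from 26855 regions with a peak in every library, out of 54244 regions on chromosomes 1 to 19 after peaks that shared at least 1 bp were merged, and so made up 1.86% of the shared regions. In each library a region was given the percentile of its fold enrichment among all peaks of that library's list. Its gap was the lower of the knockout percentiles minus the higher of the wild-type percentiles, and the 500 regions with the largest gap are called members. The percentiles and everything computed from the same peaks, such as fold, fragment numbers and −log10 p, chose the members or share their source. They are given as descriptions, with no test.

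The assay was ATAC-seq, where the enzyme Tn5 inserts sequencing adapters into DNA free of nucleosomes, on cells of whole mouse fetal liver at embryonic day 14.5. There were 2 wild-type (WT) libraries and 2 libraries of the genotype labelled hemogen KO. The kind of knockout allele, the strain, the sex and whether the libraries of a genotype came from separate embryos or litters are unknown from the labels, so the spread between libraries may be technical. The labels name no driver or cell type for the knockout and do not say whether it was of the whole animal.

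Hemogen is a nuclear protein made in blood-forming cells and in testis, and its gene is a target of the erythroid factor GATA1. At this age red cells are made mainly in the fetal liver, and its cells are mostly erythroid precursors beside hepatoblasts, macrophages, endothelium and other blood cells. Open chromatin marks promoters, which lie at the starts of genes, and enhancers, which lie at a distance. In a bulk sample, fewer cells of a type and less open chromatin per cell cannot be told apart.

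The tissue label was read against marker genes. A peak lay at a gene boundary of all 6 erythroid markers in 3 libraries and of 5 of 6 in KO replicate 1, where Epor, the erythropoietin receptor, had none. Of the 4 hepatocyte markers, 2 had such a peak in 3 libraries and 1 in KO replicate 1, and Afp and Ttr had none in any list. Endothelial markers had a peak at 1 and 2 of 3 genes in WT replicates 1 and 2, and at 2 and 3 in the KO replicates. For macrophages the numbers were 3, 1, 1 and 3 of 3, and for lymphocytes 0, 0, 1 and 1 of 3. The macrophage numbers were highest in WT replicate 1 and KO replicate 2, the libraries with the longest lists. These had 47906 and 43050 peaks, against 34215 in WT replicate 2 and 35456 in KO replicate 1. The background per peak, which stands in for depth, was most often 5.67 fragments in WT replicate 1, 2.29 in WT replicate 2, 2.49 in KO replicate 1 and 3.8 in KO replicate 2.

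The promoters of 7 genes are shown because results below turn on them. Each sequence is the RefSeq window of assembly GRCm38.p6 from 250 bases before to 50 bases after the gene's start, 5′ to 3′ on the gene's strand, and capitals mark CpG, the site of DNA methylation in mammals. The member with the second largest gap lies at Rapgef4. Hbq1a and Hbq1b are near-identical globin genes that both hold a member. At Hcn2, Fggy, Gdf11 and Pbrm1 the fragment numbers of the genotypes lay apart by more than their counting error. The windows are Rapgef4 at chr2:71980965-71981264 (plus strand), Hbq1a at chr11:32299819-32300118 (plus), Hbq1b at chr11:32286714-32287013 (plus), Hcn2 at chr10:79716384-79716683 (plus), Fggy at chr4:95557257-95557556 (plus), Gdf11 at chr10:128891669-128891968 (minus) and Pbrm1 at chr14:31018888-31019187 (plus).
Rapgef4: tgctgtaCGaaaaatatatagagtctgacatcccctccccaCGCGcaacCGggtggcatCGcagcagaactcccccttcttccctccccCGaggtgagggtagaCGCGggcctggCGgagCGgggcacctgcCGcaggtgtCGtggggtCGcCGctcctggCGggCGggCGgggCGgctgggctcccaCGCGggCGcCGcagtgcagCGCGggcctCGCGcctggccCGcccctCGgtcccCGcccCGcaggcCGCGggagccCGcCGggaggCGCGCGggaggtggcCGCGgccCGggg
Hbq1a: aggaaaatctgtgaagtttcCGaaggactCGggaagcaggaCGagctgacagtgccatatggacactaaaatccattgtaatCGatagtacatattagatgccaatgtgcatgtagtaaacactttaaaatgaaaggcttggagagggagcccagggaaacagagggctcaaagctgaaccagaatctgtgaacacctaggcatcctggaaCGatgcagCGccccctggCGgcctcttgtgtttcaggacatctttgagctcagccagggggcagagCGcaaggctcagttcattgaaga
Hbq1b: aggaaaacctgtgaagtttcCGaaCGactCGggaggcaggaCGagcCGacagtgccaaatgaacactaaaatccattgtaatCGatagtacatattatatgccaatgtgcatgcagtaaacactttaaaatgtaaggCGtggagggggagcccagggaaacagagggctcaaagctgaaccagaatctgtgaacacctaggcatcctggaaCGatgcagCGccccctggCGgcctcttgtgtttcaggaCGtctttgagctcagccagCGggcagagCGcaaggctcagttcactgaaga
Hcn2: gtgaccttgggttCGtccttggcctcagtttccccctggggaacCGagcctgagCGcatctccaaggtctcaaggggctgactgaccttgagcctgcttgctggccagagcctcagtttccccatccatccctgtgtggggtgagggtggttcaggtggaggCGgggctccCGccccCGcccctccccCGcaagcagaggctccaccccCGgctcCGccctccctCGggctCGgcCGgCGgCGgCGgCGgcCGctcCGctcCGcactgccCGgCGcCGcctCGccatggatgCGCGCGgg
Fggy: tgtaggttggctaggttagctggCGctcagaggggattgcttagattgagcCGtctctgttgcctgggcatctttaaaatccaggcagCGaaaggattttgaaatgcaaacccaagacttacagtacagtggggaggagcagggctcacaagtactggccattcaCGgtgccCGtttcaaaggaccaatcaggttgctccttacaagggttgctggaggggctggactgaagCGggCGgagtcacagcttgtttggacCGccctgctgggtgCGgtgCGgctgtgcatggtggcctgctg
Gdf11: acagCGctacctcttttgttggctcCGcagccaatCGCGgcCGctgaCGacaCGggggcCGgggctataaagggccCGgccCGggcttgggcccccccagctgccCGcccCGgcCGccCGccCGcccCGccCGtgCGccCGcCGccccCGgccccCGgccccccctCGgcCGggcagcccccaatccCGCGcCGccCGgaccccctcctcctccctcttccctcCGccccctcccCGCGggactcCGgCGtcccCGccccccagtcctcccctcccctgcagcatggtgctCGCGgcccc
Pbrm1: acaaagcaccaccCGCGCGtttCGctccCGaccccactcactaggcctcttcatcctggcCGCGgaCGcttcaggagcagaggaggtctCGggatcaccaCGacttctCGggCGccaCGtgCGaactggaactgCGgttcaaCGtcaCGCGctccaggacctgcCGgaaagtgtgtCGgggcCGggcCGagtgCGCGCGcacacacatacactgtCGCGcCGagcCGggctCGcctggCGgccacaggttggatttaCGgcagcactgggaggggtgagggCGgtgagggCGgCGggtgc

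These windows ranged widely in CpG. Rapgef4 had 40 CpG in its 300 bases, Gdf11 36 and Pbrm1 35, while Hcn2 had 26, Hbq1b 13, Fggy 10 and Hbq1a 8. The windows of Hbq1a and Hbq1b were alike at 286 of 300 positions (95.3%), and reads from either may be placed at the other.

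The members were weakly to moderately open regions. Their median percentile was 36.6 in WT replicate 1 (quartiles 23.3 and 49.95) and 25.3 in WT replicate 2 (13.1 and 39.6). It was 51.3 in KO replicate 1 (42.0 and 63.3) and 55.1 in KO replicate 2 (40.9 and 65.5). Over all shared regions the medians were 70.6, 59.2, 60.8 and 67.5 in the same order, so members stood low in the WT lists and still below the typical shared region in the KO lists. By the mean of their 4 percentiles, 74 members lay under 25, 270 between 25 and 50, 133 between 50 and 75, and 23 at 75 or above. The last class held 4.6% of members and 34.7% of all shared regions.

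**Figure D1:**
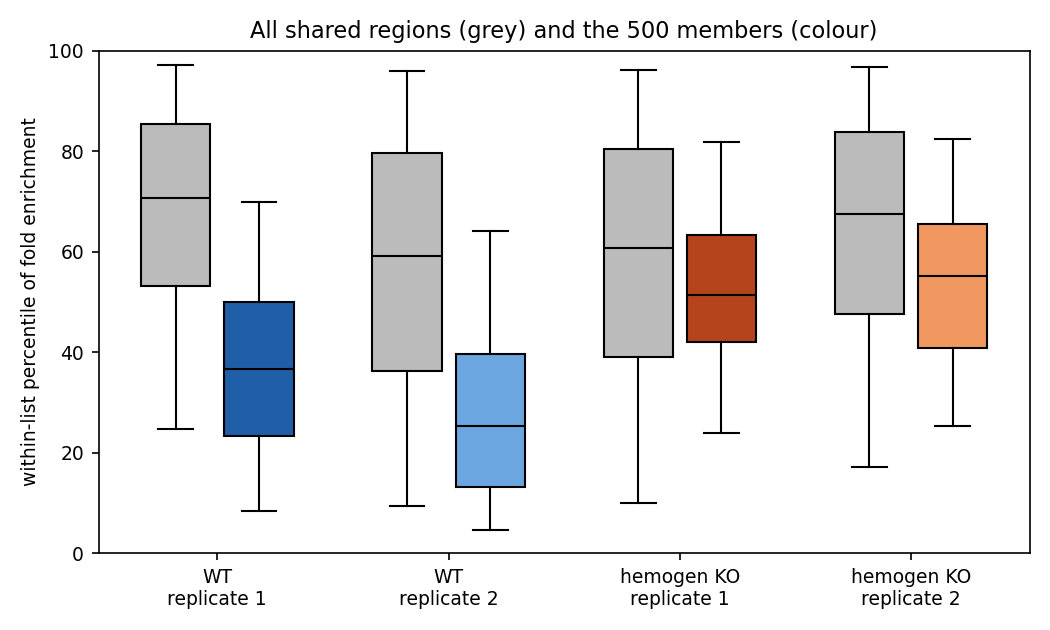
Within-list percentile of fold enrichment (vertical axis, 0 to 100) in each of the 4 libraries for all 26855 shared regions (grey boxes) and for the 500 members (coloured boxes); boxes span the quartiles, lines mark medians and whiskers reach the 5th and 95th percentiles. The members' medians were 36.6 and 25.3 in WT against 51.3 and 55.1 in KO, all below the medians of the shared regions.

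The gap ran from 6.58 percentile points at the 500th member to 35.4 at the first, with a median of 10.5. The libraries of 1 genotype differed in a member by a median of 7.63 points in WT and 4.75 points in KO. In 262 of 500 members the gap was larger than the difference within each genotype. The members were chosen by this gap, and no share over all shared regions was taken beside that count. WT replicate 1 was the higher WT library in 407 members, and KO replicate 1 was the lower KO library in 287. Over all shared regions these orders held in 24211 (90.2%) and 20505 (76.4%), so neither was particular to the members.

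Depth sets how finely these percentiles can be read. The strongest peak of a member rested on a median of 32 fragments in WT replicate 1, 16 in WT replicate 2, 25 in KO replicate 1 and 34 in KO replicate 2. Over all shared regions the medians were 134, 51, 54 and 83. In 438 members WT replicate 2 had 30 fragments or fewer. Between percentiles 20 and 60, 1 fragment more or less moved a peak by a median of 1.67 points in WT replicate 1, 3.11 in WT replicate 2, 2.98 in KO replicate 1 and 2.60 in KO replicate 2. The gap of the 500th member was thus about the size of a few fragments in the shallow libraries.

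The same rule was applied to every way of splitting the libraries into pairs. Both KO percentiles lay above both WT percentiles in 2665 shared regions (9.92%), of which the members are the 500 with the largest gap. Shares of regions with KO above WT are read beside 9.92%, and shares of members beside 1.86%. The reverse order held in 3680 regions (13.7%). When the 2 libraries with the longer lists, WT replicate 1 and KO replicate 2, were set against the other 2, they lay above in 15256 regions (56.8%) and below in 407 (1.52%). Replicates numbered 1 lay above those numbered 2 in 3864 regions (14.4%) and below in 983 (3.66%). The genotype split was therefore neither the commonest order of the 4 percentiles nor the one with the widest gaps. The 500th gap was 6.58 points for KO above WT and 8.48 for WT above KO. It was 19.8 for the long lists above the short ones and −0.078 for the reverse, where only 407 of the 500 regions had the order. For replicates numbered 1 above 2 it was 8.42, and for the reverse 1.11.

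The pairings stood in another order when the length of a list no longer entered the percentile. Ranked among the 26855 shared regions alone, an alternative, KO lay above WT in 5170 regions and WT above KO in 5506. The long lists lay above the short ones in 3978 and below in 5020, and the replicate numbers split 3642 and 3518 regions. On that scale the 500th gap was 11.5 points for KO above WT and 10.7 for WT above KO, against 9.12 and 8.25 for the pairing by list length and 6.51 and 6.54 for the pairing by number. Of the 500 members, 234 were again among the 500 largest gaps on that scale. No test of a pairing is given, because the regions were chosen on these values; an exact permutation test of 2 libraries against 2 cannot go below a p of 0.33.

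**Figure D2:**
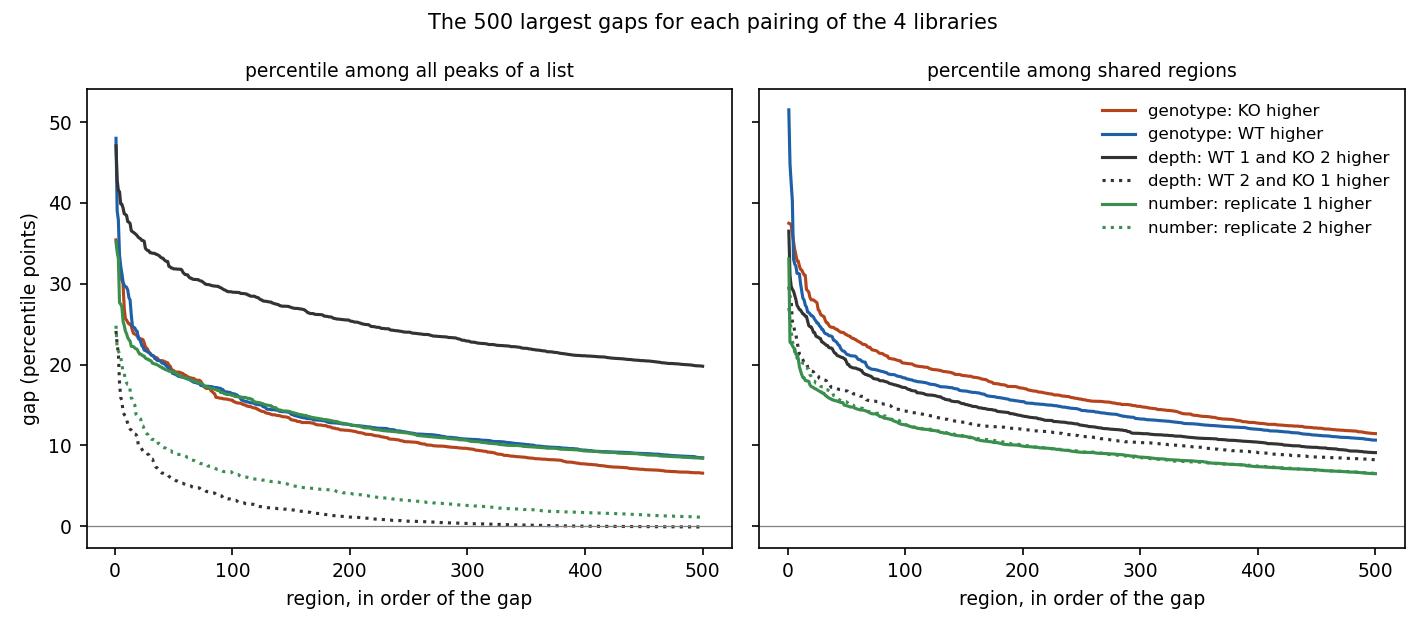
The 500 largest gaps (vertical axis, percentile points) in order (horizontal axis) for each pairing of the 4 libraries and each direction, with percentiles taken among all peaks of a list (left) and among shared regions (right). On the left the long lists, WT replicate 1 and KO replicate 2, reach the widest gaps over most of the range; on the right the KO-higher line ends at 11.5 points, and the lines of the other pairings end between 6.51 and 9.12.

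A choice made in 1 KO and 1 WT library was read in the libraries it did not use. When 500 regions were chosen for KO replicate 1 above WT replicate 1, 80.4% were higher in KO replicate 2 than in WT replicate 2, against 79.8% of all shared regions. When KO replicate 1 above WT replicate 2 made the choice, 55.2% were higher in KO replicate 2 than in WT replicate 1, against 31.4%. The choices by KO replicate 2 gave 69.8% against 55.2% when read in KO replicate 1 over WT replicate 2, and 34.0% against 16.6% when read in KO replicate 1 over WT replicate 1. The chosen regions thus stood above the background in 3 of the 4 readings and matched it within 1 point in the other one.

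The mean of the 4 readings was 59.85% for KO above WT, against 45.8% of all shared regions. For WT above KO it was 63.1% against 54.2%. For the long lists above the short ones it was 75.05% against 82.4%, and for the reverse 22.4% against 17.6%. Regions chosen for the long lists thus fell below their background. For replicates numbered 1 above 2 it was 48.35% against 59.4%, and for the reverse 31.25% against 40.6%. Both genotype directions thus lay above their background, by more in KO above WT, and so did the short lists above the long ones. This background is not one of like level, as the chosen regions stood lower in the lists. For the choice by KO replicate 1 above WT replicate 1, their medians were 41.3 in KO replicate 2 and 23.9 in WT replicate 2. Over all shared regions these were 67.5 and 59.2. Some readings of the other pairings are also genotype readings turned round.

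On percentiles among shared regions, a scale added for these readings after seeing the data, they gave 67.4%, 70.6%, 69.8% and 64.4%, where all shared regions gave 47.3%, 49.1%, 49.8% and 51.8%. On that scale the mean was 68.05% for KO above WT and 64.7% for WT above KO. For the pairing by list length it was 51.55% and 45.3%, and for the pairing by replicate number 34.7% and 35.7%. Some readings of these pairings are genotype readings turned round, so they fall as the genotype readings rise. The regions chosen for KO replicate 1 above WT replicate 2 gave 70.6% in the genotype pairing and 29.4% in the pairing by number. The pairings are therefore no independent contrast. Each of the 4 readings shares its libraries with the others, and regions are not replicates, so no p is given.

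**Figure D3:**
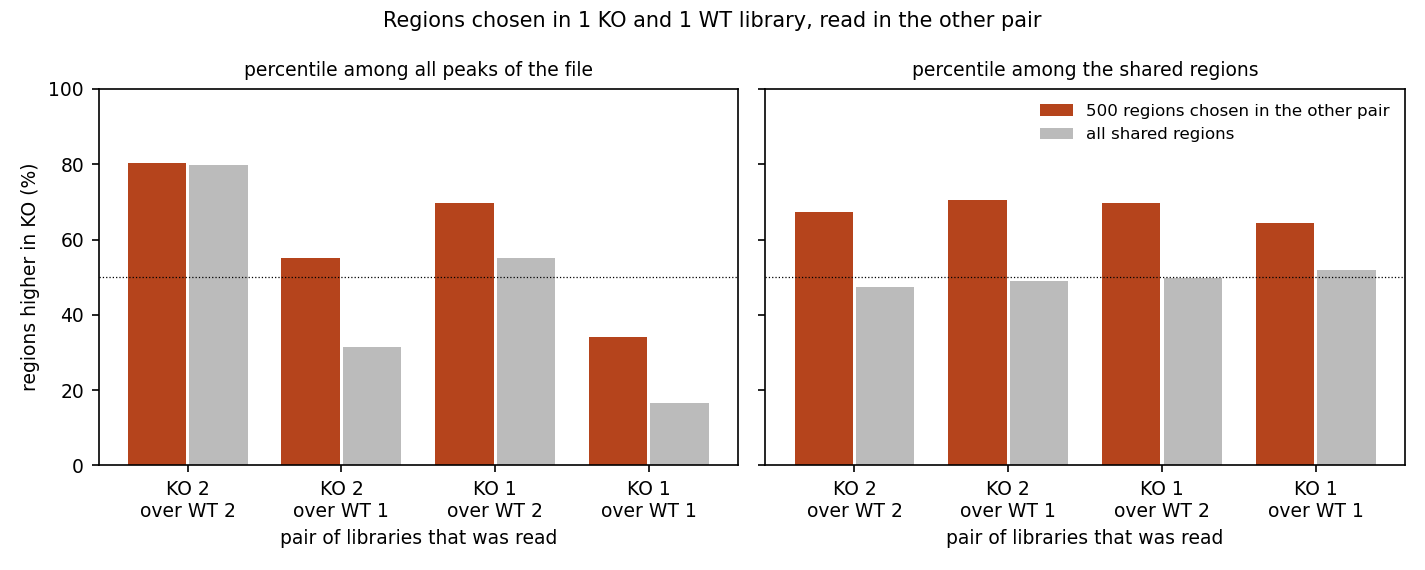
Share of regions higher in KO (vertical axis, percent) in each pair of libraries that was read, for 500 regions chosen in the other pair (red bars) and for all shared regions (grey bars); left, percentiles among all peaks of a list; right, percentiles among shared regions; the dotted line marks 50%. The red bars stand at 80.4, 55.2, 69.8 and 34.0% on the left and between 64.4 and 70.6% on the right, where the grey bars stay between 47.3 and 51.8%.

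The largest gaps were mostly at peaks with few fragments, with Hbq1a and Hcn2 as exceptions. The 25 members with the largest gap had gaps of 22.7 points or more: 7 lay within 1 kb of a gene boundary, 9 inside genes and 9 outside. WT replicate 2 had 10 to 80 fragments at them, with a median of 13 and 15 or fewer in 17 of them. The nearest gene lay over 100 kb away in 2 of the 25, Bmp7 and Magi3. The first member, chr13:23395848-23396834, lay 21.8 kb from Abt1, which encodes a nucleolar protein. Its percentiles were 14.7 and 9.21 in WT replicates 1 and 2, against 50.1 and 51.8 in KO replicates 1 and 2. Both KO values lay above both WT values by more than 35 points, while the libraries of each genotype lay within 6 points of each other.

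The second member, chr2:71981008-71981596, overlapped the Rapgef4 window printed above. Rapgef4 encodes EPAC2, an exchange factor for the small GTPase Rap that is switched on by cyclic AMP. Its percentiles were 23.3 and 8.23 in WT against 61.6 and 58.0 in KO. The fragments behind them were 22 and 10 in WT against 25 and 29 in KO. That the groups did not overlap in percentile follows from the rule, as in every member. The shallow WT replicate 2 was again the lowest library.

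Camk2b, a subunit of calcium/calmodulin-dependent kinase II, held the third member inside the gene at chr11:6006282-6007728, with percentiles of 10.1 and 13.1 in WT against 46.7 and 56.7 in KO. A further member lay at its boundary, chr11:6065073-6066169, with 51.8 and 26.6 in WT against 61.9 and 60.4 in KO. The intronic peak thus had the wider gap and the lower WT values. No gene held more than 2 members, and 13 genes held 2, among them Camk2b, Mfsd14b, Rgs3, Osr1 and Tmcc3.

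The fourth member, chr6:128753800-128754580, lay 24.4 kb from Klrb1c, a receptor of natural killer cells that belongs to a family of close copies, so the placement of reads is uncertain. Its percentiles were 40.8 and 41.6 in WT against 74.7 and 73.7 in KO. The libraries of each genotype lay close together. The fifth lay inside Scnn1a, the alpha subunit of the epithelial sodium channel, with 7.2 and 5.26 in WT against 43.3 and 37.8 in KO.

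**Figure D4:**
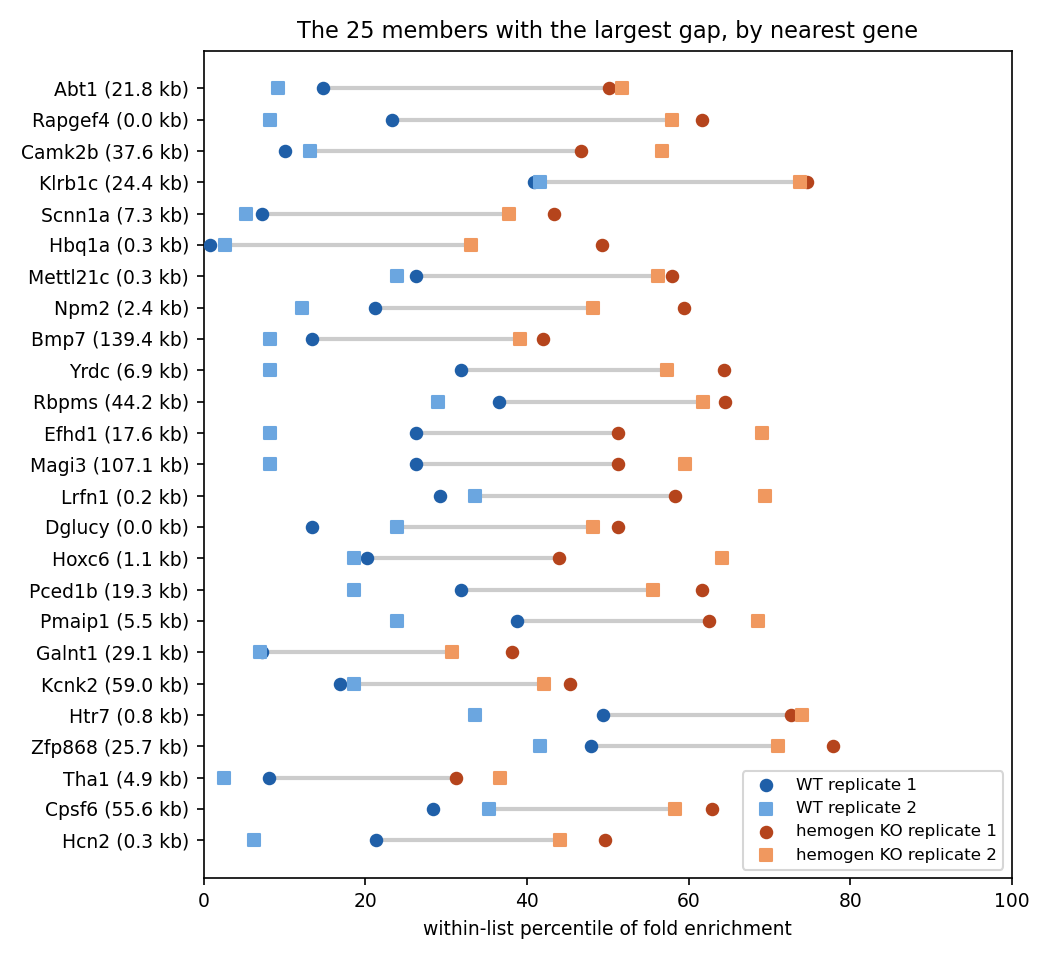
Within-list percentile of fold enrichment (horizontal axis) in the 4 libraries for the 25 members with the largest gap, labelled by the nearest protein-coding gene and its distance; grey lines span the gap between the higher WT and the lower KO library. All gaps shown are 22.7 points or wider, from Abt1 at 35.4 down to Hcn2.

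At gene boundaries the widest gaps after Rapgef4 were at Hbq1a and Mettl21c. Hbq1a encodes theta-globin, a member of the alpha-globin cluster. Its member, chr11:32299852-32300743, had percentiles of 0.746 and 2.58 in WT against 49.3 and 33.1 in KO. Hbq1b, at chr11:32286664-32287838, had 5.85 and 9.94 in WT against 46.3 and 30.2 in KO. These were among the few members with many fragments: 170, 80, 133 and 178 at Hbq1a and 365, 171, 230 and 287 at Hbq1b, with the WT libraries given first. KO replicate 1 was the highest of the 4 libraries in percentile at both genes.

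The local background also enters the fold. Divided by the size factors, the background at Hbq1a was 49.2 and 40.9 fragments in WT against 28.2 and 38.7 in KO, and at Hbq1b 80.4 and 70.4 against 52.2 and 64.8. WT replicate 2 and KO replicate 2 lay close together, and KO replicate 1 was the lowest. Scaled likewise, the fragments at Hbq1a were 98.7 (95% exact Poisson interval 84.4 to 115) and 115 (91.3 to 143) in WT against 169 (142 to 201) and 165 (141 to 191) in KO. At Hbq1b they were 212 and 246 in WT against 293 and 266 in KO. The ratio of the KO mean to the WT mean was 1.56 at Hbq1a and 1.22 at Hbq1b. The intervals of the genotypes overlapped narrowly at Hbq1a. At Hbq1b they overlapped widely, with 211 to 286 in WT replicate 2 against 236 to 298 in KO replicate 2.

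Mettl21c encodes a protein methyltransferase of muscle, and its member had 26.3 and 23.9 in WT against 57.9 and 56.3 in KO. Dglucy, a mitochondrial glutamate cyclase, had 13.5 and 23.9 in WT against 51.3 and 48.1 in KO. Both members rested on 13 fragments in WT replicate 2, so a few fragments would move their place in that list. Htr7, a serotonin receptor, had 49.5 and 33.6 in WT against 72.7 and 74.1 in KO. Ntrk2, the receptor of brain-derived neurotrophic factor, had 20.1 and 13.1 in WT against 42.0 and 56.3 in KO, from 11 fragments in WT replicate 2.

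Fggy, a carbohydrate kinase, stood higher in the lists. Its member, chr4:95557111-95557776, had percentiles of 68.3 and 53.5 in WT against 89.7 and 88.6 in KO. The fragments were 53 and 21 in WT against 54 and 78 in KO, although WT replicate 1 was the deepest library. Scaled for depth they were 30.8 (23.0 to 40.2) and 30.2 (18.7 to 46.2) in WT against 68.7 (51.6 to 89.7) and 72.2 (57.1 to 90.1) in KO. The KO intervals began above the ends of the WT intervals.

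Fragment numbers scaled by a size factor were read in every member, as a view of the same peaks that does not involve list length or local background. Both KO values lay above both WT values in 449 of 500 members, with a background of 21.8% of all shared regions; since the members were chosen on fold from these fragments, this count is a description. The ratio of the KO mean to the WT mean was 1.495 at the median and ran from 0.888 to 5.15. The lowest ratio was at Alb, where fragments were 32 and 14 in WT against 11 and 22 in KO. Its percentiles were 2.22 and 2.53 in WT against 9.23 and 21.3 in KO, and its background, divided by the size factors, was 7.72 and 6.42 fragments in WT against 3.41 and 5.03 in KO. At Alb the fold was thus higher in KO while the scaled fragments were not.

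In 27 members the 95% exact Poisson intervals of both KO libraries lay above those of both WT libraries, where the background was 183 shared regions (0.681%). The reverse held in 98 shared regions (0.365%). The intervals cover counting error only and not the spread between embryos. Of the 27, 16 lay at a gene boundary, 7 inside genes and 4 outside, and their ratios ran from 1.43 to 5.15 with a median of 2.11. WT replicate 2 had 13 to 283 fragments in them. Only Hcn2 was also among the 25 largest gaps; the others named in the next paragraphs that are outside the naming rule were chosen after their values were seen.

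The widest ratio, 5.15, was at a member 10.8 kb from Trim43a, chr9:88599243-88600037, with 68 and 21 fragments in WT against 148 and 184 in KO. Its percentiles were 77.0 and 53.5 in WT against 98.5 and 99.1 in KO, so it stood among the strongest peaks of both KO lists. Trim43a belongs to a family of close copies on chromosome 9, and the placement of reads there is uncertain. The next ratio, 3.94, was at a member 13.1 kb from Lactb, a mitochondrial protein, with 56 and 18 fragments in WT against 98 and 114 in KO. Another strong member lay 10.2 kb from the predicted gene Gm40363, with percentiles of 86.3 and 81.4 in WT against 99.8 and 99.9 in KO.

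At Gdf11, a signalling protein of the TGF-beta family, the fragments were 64 and 22 in WT against 63 and 87 in KO. Its member, chr10:128890877-128891983, had percentiles of 51.7 and 30.4 in WT against 66.9 and 68.1 in KO, and a ratio of 2.34. At Hcn2, a pacemaker channel, the fragments were 138 and 47 in WT against 107 and 127 in KO. Scaled, they were 80.1 (67.3 to 94.6) and 67.6 (49.7 to 89.9) in WT against 136 (112 to 165) and 118 (98.0 to 139.9) in KO. Both KO intervals at Hcn2 began above the end of the higher WT interval, and that of KO replicate 2 only just.

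Some of the 27 were strong promoters. Pbrm1 encodes BAF180, a subunit of the PBAF remodelling complex built on BRG1. Its member, chr14:31018597-31019655, had 853 and 283 fragments in WT against 651 and 865 in KO, and percentiles of 88.7 and 83.8 in WT against 96.3 and 97.2 in KO. Scaled, these were 495 (462 to 529) and 407 (361 to 458) in WT against 829 (766 to 895) and 801 (748 to 856) in KO, a ratio of 1.81. The scaled libraries of WT differed by more than their counting intervals at this promoter, and those of KO did not. The same member also overlapped the promoter window of Gnl3, chr14:31019082-31019381 on the minus strand. Its signal therefore cannot be assigned to either gene alone.

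Kctd6, an adaptor of a cullin ubiquitin ligase, had 571 and 209 fragments in WT against 556 and 678 in KO, with a ratio of 2.11. Phc2, a Polycomb protein, held a member inside the gene with 674 and 164 in WT against 616 and 715 in KO, and a ratio of 2.31. Zfp609 had 404 and 147 in WT against 353 and 451 in KO, with a ratio of 1.94. In each of these, KO replicate 1 fell little short of WT replicate 1 in fragments, while its size factor was 0.786 against 1.72. The size factors of WT replicate 2 and KO replicate 2 were 0.695 and 1.08.

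**Figure D5:**
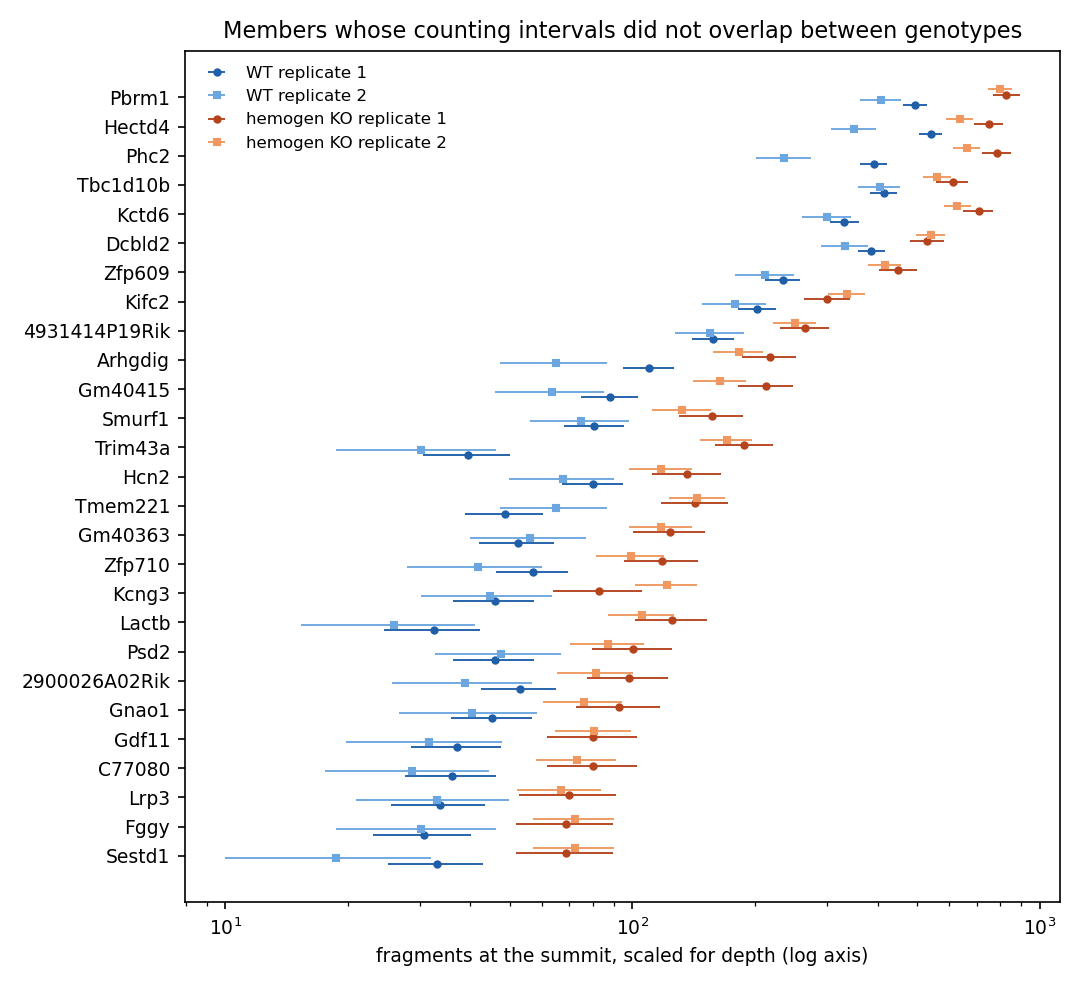
Fragments at the summit divided by a size factor (horizontal log axis) in each library for the 27 members whose 95% exact Poisson intervals (bars) did not overlap between genotypes, labelled by the nearest gene and ordered by mean. Both WT libraries (blue) lie to the left of both KO libraries (red and orange) at every gene shown, because non-overlap is how they were picked; the ratio of means runs from 1.43 to 5.15.

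Place relative to genes was not used by the rule, and no test was made of it. Of the 500, 153 (30.6%) lay within 1 kb of a boundary of a protein-coding gene, 202 (40.4%) inside a gene and 145 (29.0%) outside. Of all shared regions, 41.2%, 36.1% and 22.7% did. The median distance to the nearest boundary was 7924 bp for members and 2882 bp for all shared regions. The 500 regions with the largest gap for WT above KO were at a boundary in 11.2%, and those of the other pairings in 9.4 and 50.8% by list length and 23.8 and 28.6% by replicate number. The boundary share of the KO-higher members lay below that of all shared regions and above that of the WT-higher set, and the pairings that mix the genotypes spanned a wider range.

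The classes differed little in gap. Members at a boundary had a median gap of 10.7 points, those inside genes 10.4 and those outside 10.5. Boundary members had a median ratio of scaled fragments of 1.54, against 1.45 and 1.51. They were also wider, at a median of 911 bp against 698.5 and 714 bp. Among all shared regions, KO lay above WT at 12.3% of boundary regions, 8.30% of those inside genes and 8.27% of those outside. Members made up 1.38, 2.08 and 2.37% of these classes, so boundary regions had the highest share with this order and the lowest share of members.

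Promoter sequence was read in 485 members, those on chromosome 18 not being used here. Of these, 129 (26.6%) overlapped a promoter window, against 36.2% of all shared regions and 6.38% of the WT-higher set. The 146 windows, of 132 genes, had a median GC content of 62.3%, the same as windows at all shared regions, and 57.0% over all promoters. They held a median of 17 CpG, against 22 at all shared regions and 14 over all promoters. The ratio of observed to expected CpG was 0.632, 0.789 and 0.586. CpG number in the members' windows thus lay between those of all shared regions and all promoters. The regions chosen for replicates numbered 1 above 2 were alike, with medians of 62.3% GC, 18 CpG and a ratio of 0.610. The remaining sets, WT above KO among them, had ratios from 0.384 to 0.764. These values were thus not particular to the members.

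Short motifs were counted on both strands of these windows, as descriptions and not as sites. AGATAA, a form of the GATA motif, was found in 2.74% of the members' windows, 5.33% of windows at all shared regions and 9.57% of all promoters. The members' windows that held it were those of Mthfsl, Cd38, Ccdc141 and Cyp1a1. CCACACCC, the box bound by KLF1, was in 2.74%, 3.79% and 3.65%, and CAGATG, an E-box read by TAL1, in 11.6%, 10.2% and 14.6%. The ETS motif CCGGAAG was in 4.79% against 18.6% and 11.9%, and the GC box GGGCGG in 57.5% against 69.5% and 47.0%. In the 85 windows of the regions chosen for replicates numbered 1 above 2, ETS was in 4.71% and the GC box in 55.3%. The remaining sets, WT above KO among them, had ETS in 6.90 to 21.7% and the GC box in 48.3 to 63.3%. The low ETS share was thus not particular to the members. The other 8 motifs searched were CCAAT, TGACGTCA (CRE), CGCATGCG (NRF1), AAGATGGC (YY1), TTCCCGCC (E2F), CACGTG (MYC), TGTGGTT (RUNX) and TGANTCA (AP-1). They were in 0.685 to 35.6% of the members' windows. Of the 13 motifs, CAGATG alone was at a share no lower in the members' windows than at all shared regions.

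Lists of genes were read beside all 25928 shared regions within 100 kb of a gene, of which 468 (1.805%) were members. Of 23 shared regions nearest to 9 globin genes, 2 (8.70%) were members, the near-identical Hbq1a and Hbq1b, and 30.4% had KO above WT, against 9.89% of all. Of 57 regions at heme and iron genes none was a member and 10.5% had this order. Of 116 regions at red cell membrane genes 2 (1.72%) were members and 15.5% had this order. Of 135 regions at erythroid regulators none was a member. In lists of these sizes the overall share of 1.805% gives few members. At erythroid regulators 4.44% had KO above WT and 16.3% had WT above KO, against 9.89% and 13.8% of all regions near genes. For all genes the median gap was −7.64 points, and it was −10.5 at globin genes and −13.2 at erythroid regulators, so most regions of each list did not have this order.

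The members of the red cell membrane list were at Add2, beta-adducin of the membrane skeleton, and Rhd, the Rhesus protein. Add2, at chr6:86028585-86029400, had percentiles of 52.4 and 23.9 in WT against 64.8 and 72.1 in KO, with 36, 13, 27 and 40 fragments. Rhd, at chr4:134879470-134880247, had 33.0 and 38.6 in WT against 54.2 and 46.9 in KO. Scaled fragments at Rhd were 48.8 and 71.9 in WT against 76.4 and 67.6 in KO, and so overlapped between genotypes, while those at Add2 were 20.9 and 18.7 in WT against 34.4 and 37.0 in KO.

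Of 59 shared regions at genes of the BAF complex, 11.9% had KO above WT. The only member was at Pbrm1, in a region that also overlapped the promoter window of Gnl3. In the list of stem and progenitor cell genes the member was Kit, the receptor of stem cell factor, inside the gene at chr5:75624021-75624575, with 53.7 and 48.1 in WT against 65.4 and 70.1 in KO. In that list 4.44% of 45 regions had KO above WT. Pmaip1, which encodes the pro-apoptotic protein NOXA, was the member of the apoptosis list, 5.49 kb from the gene, with 38.8 and 23.9 in WT against 62.5 and 68.6 in KO. Genes of the cell cycle (64 regions), of organelle clearance (53) and of housekeeping (29) held 0 members, a count close to the overall share in lists of this size. KO lay above WT in 12.5, 9.43 and 3.45% of their regions.

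Genes of endothelium, lymphocytes and hepatocytes held 9 members. Endothelial and stellate genes had 3 of 24 regions (12.5%, beside 1.805% of all regions near genes): 97.1 kb from Kdr, 10.2 kb from Cdh5 and at the boundary of Pdgfrb, a receptor of mesenchymal cells, which had 36.6 and 21.2 in WT against 47.8 and 51.1 in KO. Lymphocyte genes had 3 of 17 (17.6%): 24.4 kb from Klrb1c, inside Pax5, the B cell factor, with 13.5 and 8.23 in WT against 29.1 and 35.8 in KO, and 12.4 kb from Cd2. Hepatocyte genes had 3 of 49 (6.12%): Prox1, Krt18 and Alb. KO lay above WT in 16.7, 29.4 and 10.2% of the regions of these lists. Scaled fragments overlapped between genotypes at Kdr, with 12.2 and 18.7 in WT against 24.2 and 18.5 in KO. They also did at Cdh5, with 13.9 and 23.0 in WT against 22.9 and 24.1 in KO, and at Alb. At the other members of these lists both scaled KO values lay above both WT values. The marker peaks of endothelium and lymphocytes given in the opening were found in as many or more genes in the KO lists than in the WT lists, those of hepatocytes in 2 and 2 against 1 and 2 of 4, and their part in these members was not tested. Among the lymphocyte markers only Cd79b had a peak. The endothelial marker Cdh5 had a peak in WT replicate 2 and KO replicate 2 alone. Macrophage (12 regions) and granulocyte (6) genes held no member and no region with KO above WT, and megakaryocyte genes (20) no member. These counts are close to the overall shares in lists of this size.

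The members were spread along the genome. They numbered 10 on chromosome 16 to 49 on chromosome 11, or 1.18% of shared regions on chromosome 16 to 2.80% on chromosome 14. On chromosome 14 between 40 and 60 Mb, 6 of 224 shared regions were members, at Mapk1ip1l, Armh4, Hnrnpc, Slc7a7, 4931414P19Rik and Lats2, and 9.82% had KO above WT. Within 1 Mb of Hemgn itself there were 63 shared regions, of which 3 (4.76%) had KO above WT, and 0 members, close to the overall share of 1.86% in so few regions. Within 50 kb, 2 of 11 regions had KO above WT. No 3 members lay within 100 kb of each other, and 22 pairs did, among them the theta-globin genes, Gucy1a1 and Gucy1b1, and Hoxb9 and Hoxb3.

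Most shared regions next to a member did not have KO above WT. Of 249 other shared regions within 10 kb of a member, 5.62% had KO above WT. Of 1070 between 10 and 50 kb 7.66% did, and of 3463 between 50 and 200 kb 8.69%, against 8.21% of all 26355 shared regions that were not members. Gucy1a1 and Gucy1b1, the subunits of soluble guanylate cyclase, were an exception at their own boundaries, with 34.3 and 45.0 in WT against 63.3 and 70.0 in KO at Gucy1a1 and 36.6 and 18.6 in WT against 53.6 and 56.3 in KO at Gucy1b1. They were named as a pair after their values were seen.

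The end of the list was not a break in the data. The last members were at Dcbld2, Prelid3a and Grb2, with gaps of 6.61, 6.58 and 6.58, and the first regions outside were at Gm29975, Ptpn12 and Pacsin2, with gaps of 6.56, 6.56 and 6.54. Dcbld2 had percentiles of 84.5 and 85.02 in WT against 91.6 and 92.5 in KO from 231 to 665 fragments. Grb2 had 8.25 and 19.9 in WT against 43.2 and 26.5 in KO from 18 to 23 fragments. A gap of the same size thus stood for tight values at a strong peak and for loose values at a weak one.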

How the data were processed

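ATAC-seq peak lists of 2 WT and 2 hemogen KO fetal liver libraries were used, 1 list per library. The tools named in the submitters' processing notes are MACS2 2.2.7.1, Picard 2.21.4, SAMtools 1.9 and Bowtie2 2.3.5. Any role, setting or genome build was not given in the sources used here. Each deposited fold is the authors' ratio of a peak's summit to its background in the same library. The deposited −log10 p values and the deposited score are the authors' values for each peak. Where replicate numbers in peak names differed from those of the labels, the labels were used.

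The files give no library depth. The number of fragments at a summit and its background were solved from the deposited fold and −log10 p, which gave whole fragments for 100% of peaks with a −log10 p under 60 (tolerance 0.001). Over all peaks the share was 96.9% in WT replicate 1, 99.8% in WT replicate 2, 99.4% in KO replicate 1 and 99.2% in KO replicate 2. Peaks not solved within the tolerance kept the nearest whole number. Fragments were divided by a size factor, the library's median ratio to the geometric mean of the 4 libraries over shared regions. Lists were merged on chromosomes 1 to 19 at 1 bp shared, and a region took the highest percentile of its peaks in each library. Summits lay in RefSeq promoter windows of GRCm38.p6 in 10.9 to 14.5% of peaks, and in 0.376 to 0.596% after shifts of 5, 20 or 50 kb, so that assembly's gene table and 20665 protein-coding genes were used. Python 3.11.15, pandas 2.3.3, numpy 2.4.6 and scipy 1.17.1 were used, and the scripts were tested on simulated data.

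The members, the 16 gene lists (307 genes) and the alternatives were chosen with earlier results of these data known. Regions were named by a rule: the 25 largest gaps, the 15 largest at a gene boundary, the 3 on either side of the 500th, members nearest to a listed gene within 100 kb, the 5 genes with most members, and groups of 3 or more members within 100 kb. Replicates numbered alike deviated from their genotype means in opposite directions over shared regions (r = −0.201), so the numbers were not taken as pairs.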

Additional observations from a re-analysis of the deposited data

How the results depend on the processing

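The count of shared regions with both KO above both WT percentiles, 2665, was 5170 with percentiles among shared regions, 4702 with lists cut to equal length by −log10 p, 5489 with replicate numbers crossed and, in an alternative chosen after seeing the data, 5842 with scaled fragments. It was 1928 with peaks ranked by −log10 p and 1820 ranked by fragments. Of the 500 members, 314 stayed among the 500 when peaks were ranked by fragments, 234 with percentiles among shared regions, 182 with lists of equal length, 208 with a fold of at least 4, 321 with crossed numbers and 167 by the ratio of scaled fragments, the last also chosen after seeing the data. Without 1 library the count ran from 3908 to 13693, the 500th gap from 11.4 to 26.3, the median gap from 15.7 to 31.5, the boundary share from 19 to 34.2% and the members kept from 145 to 287. The count was 13693 without WT replicate 1, 8565 without KO replicate 1, 4131 without KO replicate 2 and 3908 without WT replicate 2. A rule with 3 libraries asks less of a region, so counts rise by construction, and the order of the libraries was not tested for a cause. The boundary share, 30.6%, was 23.6% within 500 bp and 36.4% within 2 kb. Lists of 250 and 1000 regions ended at gaps of 10.5 and 3.15, with boundary shares of 30.8 and 33.0%. The mean share of regions higher in KO in the held-out pair, 59.85%, was made of 80.4, 55.2, 69.8 and 34.0%, and was 68.05% with percentiles among shared regions, added after seeing the data. Values with a replicate block, 3705 regions and 362 members kept, treated the numbers as pairs, which the labels do not state; numbers deviated in opposite directions, and the crossed pairing gave 5489 regions. In the 11 settings with all 4 libraries 43 members stayed throughout, 59 stayed whichever library was left out, and 18 stayed in every setting, 6 of them at a gene boundary. Depth limits single members: 438 of 500 had 30 fragments or fewer in WT replicate 2.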

Other observations

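The 18 members that stayed among the 500 in every setting were picked after their values were seen. They lay nearest to Klrb1c, Rbpms, Pmaip1, Htr7, Zfp868, Trim43a, Mapk8ip1, Rcn1, Fggy, Fbln5, Fndc11, Ccser2, Eif3c, Gm38538, Nox4, Utp6, Adam12 and Add2. Mapk8ip1, a scaffold of the JNK kinase cascade, had percentiles of 39.5 and 21.1 in WT against 60.7 and 61.5 in KO at its boundary, from 35, 13, 31 and 39 fragments. Fbln5, which encodes the elastic fibre protein fibulin 5, had 40.8 and 23.9 in WT against 63.3 and 60.8 in KO. Nox4, an NADPH oxidase, had 54.9 and 37.7 in WT against 69.0 and 73.1 in KO at a member inside the gene. Adam12, a metalloprotease, had 38.8 and 23.9 in WT against 51.3 and 59.6 in KO at its boundary.

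The X chromosome was outside the rule. It had 610 shared regions, of which 72 (11.8%) had both KO percentiles above both WT percentiles and 63 (10.3%) the reverse. Its largest gap was 20.6 points, and 7 of its regions passed the gap of the 500th member.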
